A study of Homo sapiens and Mus musculus with 8 samples.

Results

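The mRNA expression response of K562 cells to JOA was described across all genes that the cells expressed at a measurable level. K562 is an established human chronic myeloid leukemia (CML) cell line that expresses the BCR-ABL fusion kinase, and JOA (Jiyuan Oridonin A) is an ent-kaurene diterpenoid. The K562 libraries were 2 from cells given 2 μM JOA over 48 h (JOA) and 2 from control cells at 48 h, and the labels name no other agent or genetic change in either group. The labels do not say what the control medium held, nor whether the 2 libraries of a group came from separate cultures, so each p-value measures only the spread between these libraries, which may be technical. The members were chosen by level alone, as those whose mean reached 0.5 FPKM (fragments per kilobase of exon, scaled to the depth of the library) over the 4 libraries. This kept 15635 of the 35141 human genes listed, 44.5%. The member nearest to the limit had a mean of 0.5 FPKM and the gene just outside it had 0.4999. The series holds 8 libraries, and the other 4 are of mouse BaF3-T315I cells, whose table lists 12872 genes at the same level without gene names. Genes were therefore not compared between the cell lines.

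K562 cells are known for a mixed program. They make the embryonic and fetal globins of early red cells, driven by transcription factors such as GATA1 and KLF1, and they can be shifted toward red cell, megakaryocyte or myeloid features in culture. BCR-ABL signals through RAS, PI3K and STAT5 and keeps up MYC, which drives ribosome production and growth. The comparison asks which of these programs differed in cells cultured with JOA.

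The libraries were even in depth, with 22625601 to 23292639 reads recovered from the FPKM values. Red cell and line markers were present in all 4. The summed level of 13 erythroid markers was 2750 and 1890 FPKM in the JOA libraries and 5520 and 5140 FPKM in the controls. PRAME, a tumor antigen abundant in this line, lay between 513 and 551 FPKM, and CDKN2A, which K562 cells lack, was listed at 0 in all 4 libraries. Of the markers of other blood cells, 1 of 5 for T cells (CD3D), 0 of 3 for mast cells and 2 of 9 for myeloid cells (ITGAM and LYZ) reached the minimum. The JOA libraries had 15611 and 16336 genes at 0.5 FPKM or more, against 15162 and 15294 in the controls. Over all genes, the log2 distance from the control mean (root mean square) was 0.386 for JOA replicate 1 and 0.535 for JOA replicate 2. By the same measure, the 2 controls lay 0.389 apart and the 2 JOA libraries 0.461 apart. JOA replicate 1 was thus no farther from the control mean than the controls were from each other.

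With limma on log2(FPKM + 0.5), 0 genes were higher (0%) and 0 genes were lower (0%) with JOA when both an adjusted p (Benjamini-Hochberg) under 0.05 and a log2 fold change of 0.58 or more in size were asked for. The smallest adjusted p from limma was 0.171. The study's thresholds were an unadjusted p under 0.05 with the same fold, and its test was not named. These thresholds with the p-values from limma are called the unadjusted rule here. The study reported far more K562 genes in each direction, so the counts here are not its own. It was met by 841 genes with higher (5.38%) and 372 with lower values (2.38%) in JOA cells, among them 489 and 214 protein-coding genes. Of these, 211 genes were higher and 89 lower by a log2 fold change of 1 or more. Both JOA libraries lay above both controls in 5751 genes (36.8%) and below both in 2856 (18.3%), and these shares are the background for the counts below. Every count by the unadjusted rule is a description of where the values lay, since no gene passed the adjusted test. JOA replicate 2 was the farther of the JOA libraries from the control mean in 667 of the 841 higher genes (79.3%) and in 258 of the 372 lower ones (69.4%). Without JOA replicate 1 the counts were 1870 and 752, and without control replicate 1 they were 519 and 228. The median log2 fold change of all genes was 0.10, and it was 0.18 with TPM scaling, -0.03 with median-ratio scaling and 0.003 with quantile normalization. The unadjusted rule then gave 1221 higher and 242 lower genes with TPM scaling, 533 higher and 686 lower with median-ratio scaling, and 505 higher and 537 lower after quantile normalization.

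**Figure D1:**
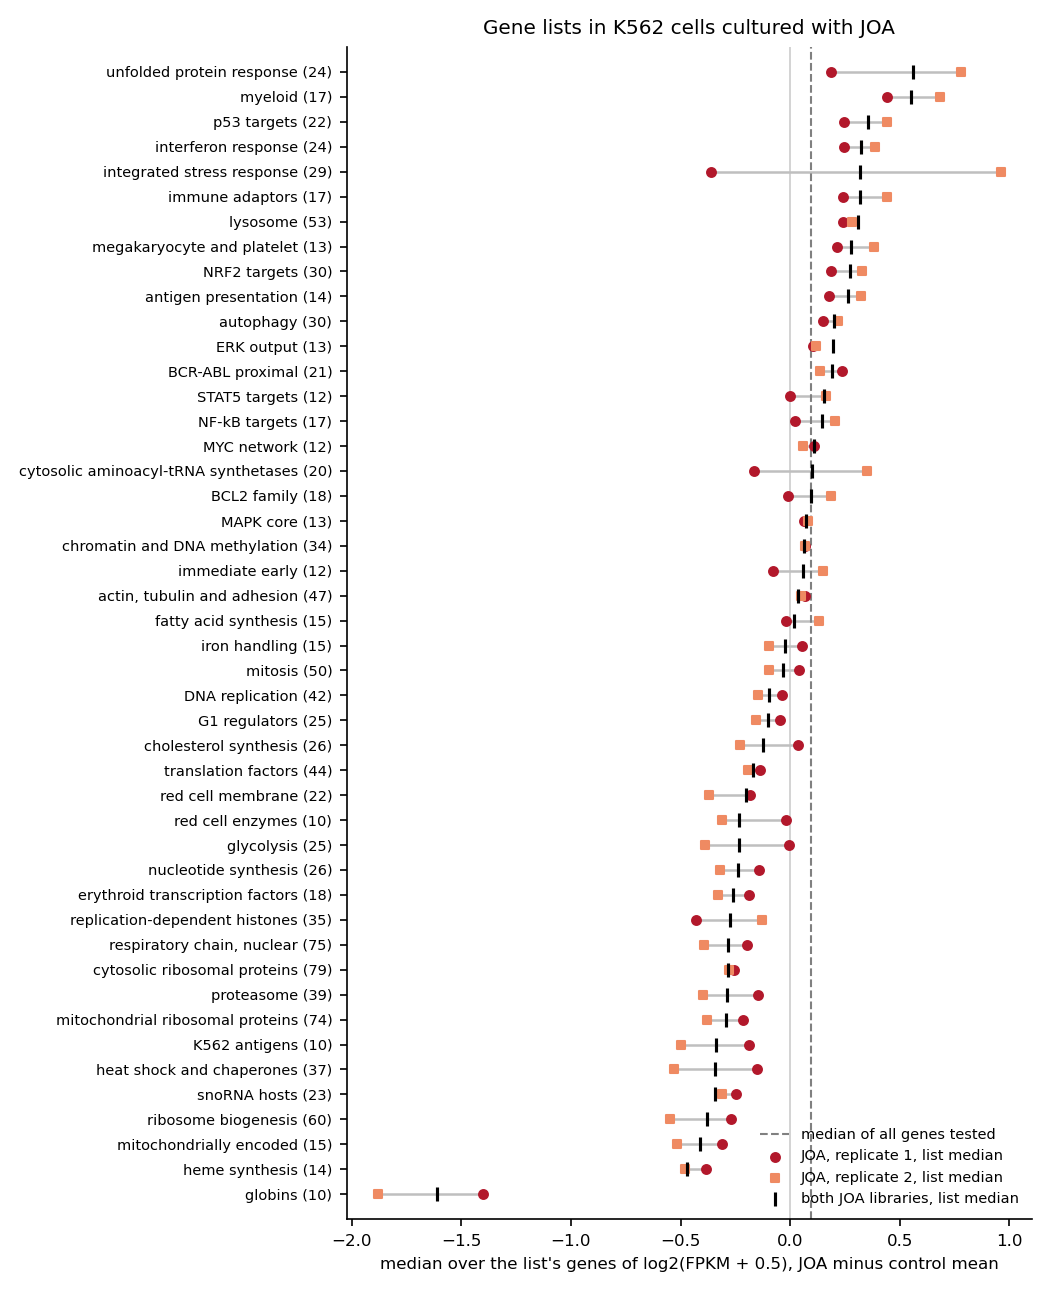
Median log2 difference of each gene list with at least 10 tested genes (number in brackets), for JOA replicate 1, JOA replicate 2 and both, each against the control mean. The globins lie apart at the low end, at -1.40 and -1.88, and the 2 JOA libraries lie far apart for the integrated stress response, at -0.36 and 0.96.

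FYB1 and PKLR had the smallest unadjusted p-values of all genes tested. FYB1 encodes an adaptor protein of T cells, myeloid cells and platelets that links receptor signals to actin and integrins. It had 25.0 and 28.4 FPKM in the JOA libraries, against 5.94 and 5.04 FPKM in the controls. Its log2 fold change was 2.18 ± 0.13 (SE, limma adjusted p = 0.171). PKLR encodes a pyruvate kinase, the enzyme of the last step of glycolysis, in its liver and erythrocyte form. It had 12.8 and 10.7 FPKM with JOA, against 47.4 and 51.2 FPKM in the controls, a log2 fold change of -2.03 ± 0.13 (SE, limma adjusted p = 0.171). Both JOA values of each gene thus lay several-fold outside the range of its controls. ITGAM, which encodes the myeloid integrin CD11b, had 10.7 and 13.9 FPKM with JOA and 4.86 and 4.70 FPKM in the controls.

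The bases just before the start sites of these 3 genes are shown because FYB1 and PKLR led the comparison by p-value and ITGAM is a defining myeloid marker, and because each stretch holds motifs of factors that act in these cells. Each line is the 250 bases before the start site in the RefSeq table on GRCh38.p14, 5′ to 3′ on the strand of the gene, and capitals mark the E-box and GATA matches. PKLR is at chr1:155301439-155301688 on the minus strand, FYB1 at chr5:39270650-39270899 on the minus strand and ITGAM at chr16:31259725-31259974 on the plus strand. The E-box bound by MYC and its partners was CACGTG, and the GATA motif was AGATAA or TGATAA or AGATAG or TGATAG, all on both strands.
PKLR: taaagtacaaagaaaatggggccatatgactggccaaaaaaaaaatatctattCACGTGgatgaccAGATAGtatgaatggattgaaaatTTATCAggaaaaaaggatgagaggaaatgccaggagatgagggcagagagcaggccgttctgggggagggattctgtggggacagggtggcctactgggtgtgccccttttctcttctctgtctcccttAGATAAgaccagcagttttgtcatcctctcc
FYB1: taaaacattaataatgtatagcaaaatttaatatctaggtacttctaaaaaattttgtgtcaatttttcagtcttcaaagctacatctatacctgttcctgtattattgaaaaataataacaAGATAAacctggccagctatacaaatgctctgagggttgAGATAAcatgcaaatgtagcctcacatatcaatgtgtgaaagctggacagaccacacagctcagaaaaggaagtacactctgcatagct
ITGAM: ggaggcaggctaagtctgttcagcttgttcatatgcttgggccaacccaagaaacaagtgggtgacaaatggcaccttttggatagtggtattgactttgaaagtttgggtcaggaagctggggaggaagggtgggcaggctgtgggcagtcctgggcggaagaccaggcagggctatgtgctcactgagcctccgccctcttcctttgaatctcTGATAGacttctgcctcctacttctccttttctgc

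The PKLR stretch held a CACGTG that begins 197 bases before the start site and 3 GATA matches, the FYB1 stretch held 2 GATA matches, and the ITGAM stretch held 1. Across genes, the E-box was found before 25 of 176 genes that met the unadjusted rule with lower values (14.2%), before 19 of 413 with higher values (4.6%), and before 887 of all 9821 tested genes with a promoter entry (9.03%). The GATA motif was found before 28 of 176 lower genes (15.9%), 74 of 413 higher genes (17.9%) and 1321 of all 9821 (13.5%). The motif shares are descriptions of letters in a window, and binding was not measured.

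The globins had the lowest median of all lists with at least 10 tested genes. The list holds the globins and AHSP, the chaperone of alpha-globin. Globins are the oxygen carriers of red cells, and the embryonic (HBE1, HBZ) and fetal (HBG1, HBG2) members are the kinds that K562 cells are known for, with HBE1 and HBG2 the most abundant here. All 10 tested members of the globin list of 12 met the unadjusted rule with lower values in JOA cells, and in all 10 both JOA libraries lay below both controls. Their median log2 fold change was -1.61, beside 0.10 for all genes tested. HBM and HBB were below the minimum level. The most abundant globin, HBE1 on chromosome 11, had 1645 and 1072 FPKM with JOA and 3464 and 3227 FPKM in the controls (log2 fold change -1.33 ± 0.23, SE, limma adjusted p = 0.227). HBG2 had 492 and 326 FPKM with JOA, against 918 and 835 FPKM in the controls, and HBG1 had 141 and 107 FPKM, against 346 and 406 FPKM. The groups did not overlap in any of these, and JOA replicate 2 had the lowest value. Of the alpha-type globins on chromosome 16, HBA2 stood at 30.1 and 10.9 FPKM with JOA and at 120 and 83.4 FPKM in the controls. HBZ, the embryonic one, had 4.70 and 2.99 FPKM with JOA, against 21.04 and 14.5 FPKM in the controls. HBBP1, a pseudogene relative of the beta-globin gene, had 15.7 and 11.03 FPKM with JOA, against 75.6 and 74.7 FPKM in the controls, the largest difference of the list (log2 fold change -2.47 ± 0.18, SE, limma adjusted p = 0.185). HBA1 with HBA2, and HBG1 with HBG2, are near-identical copies whose reads the counting could have split, so the single values are uncertain. With 1 library left out, 9 or 10 of the list still met the rule. In bulk RNA, fewer cells that make globin and less globin RNA per cell cannot be told apart.

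**Figure D2:**
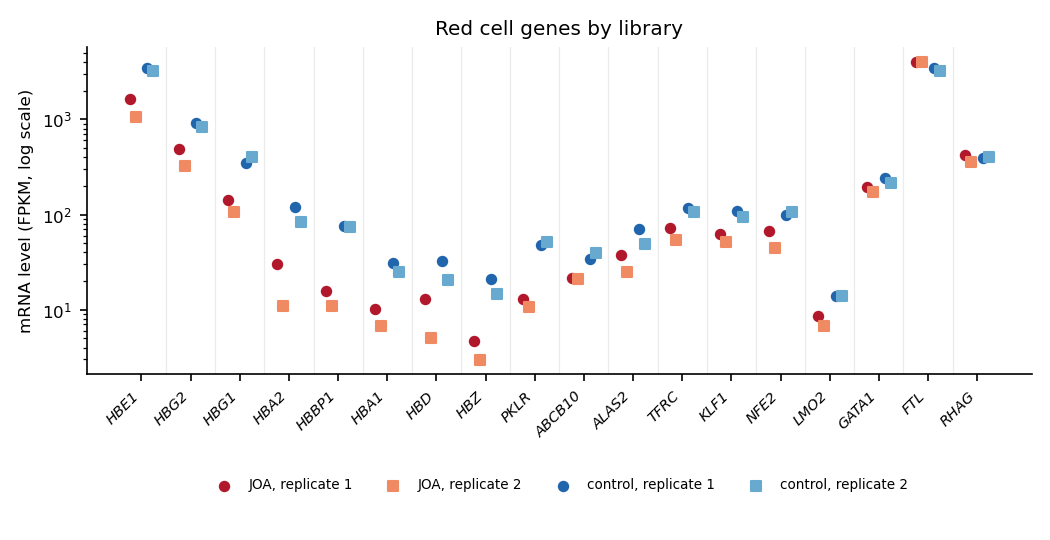
Level of 18 red cell genes in each of the 4 libraries (FPKM on a log axis), with the JOA libraries in red and orange left of the controls in blue. The globins and PKLR have both JOA values well below both controls, while FTL and RHAG do not.

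Heme synthesis and iron uptake followed the globins in part. Of 14 genes for the synthesis and transport of heme, 11 had both JOA libraries below both controls and 3 met the unadjusted rule, with a median log2 fold change of -0.47. ALAS2, the first and rate-limiting enzyme in red cells, had 37.6 and 24.6 FPKM with JOA and 69.7 and 49.1 FPKM in the controls. ABCB10, a mitochondrial transporter needed for heme, had 21.3 and 20.8 FPKM with JOA and 34.4 and 39.0 FPKM in the controls. The opposite direction was seen in ALAD, the enzyme that acts after ALAS2, with 13.3 and 13.4 FPKM with JOA, against 10.6 and 9.72 FPKM. With JOA replicate 1 left out, 6 heme genes met the rule, and with JOA replicate 2 left out 2 did. Of 15 genes for iron handling, 1 met the rule. This was the transferrin receptor gene TFRC, which brings iron into the cell, with 72.1 and 53.5 FPKM with JOA, against 116 and 107 FPKM in the controls. FTL, the light chain of the iron store ferritin, had 4001 and 4023 FPKM with JOA and 3440 and 3191 FPKM in the controls (limma adjusted p = 0.307). FTH1, the heavy chain, had 11 and 74.6 FPKM with JOA and 101 and 95.8 FPKM in the controls, so that the 2 JOA libraries differed from each other. FTH1 has many processed copies in the genome, and its values are uncertain.

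The transcription factors of the red cell program were lower by less than the globins. Of 18, 4 met the unadjusted rule with lower values and 10 lay below both controls, with a median of -0.26. KLF1, the activator of adult globin and many red cell genes, had 61.9 and 51.9 FPKM with JOA, against 108 and 93.0 FPKM in the controls. NFE2, a globin enhancer factor, had 66.5 and 44.5 FPKM with JOA and 98.8 and 106 FPKM in the controls. LMO2, a partner of GATA1 and TAL1, had 8.57 and 6.77 FPKM with JOA and 13.9 and 13.9 FPKM in the controls, and GFI1B, a repressor of the same lineage, was the fourth. GATA1 itself had 197 and 172 FPKM with JOA and 239 and 215 FPKM in the controls, a log2 fold change of -0.30 (limma adjusted p = 0.295). MYB, a factor of immature progenitors that is normally shut down as red cells mature, was on the other side, with 52.1 and 47.1 FPKM with JOA, against 32.5 and 35.6 FPKM (log2 fold change 0.54, limma adjusted p = 0.236). Among 22 genes of the red cell membrane, 3 met the rule with lower and 1 with higher values. SPTB, a spectrin of the membrane skeleton, had 3.08 and 2.98 FPKM with JOA, against 5.21 and 5.48 FPKM. BCAM, an adhesion receptor, was higher, with 7.35 and 9.40 FPKM with JOA, against 4.57 and 5.23 FPKM. RHAG, the Rh-associated glycoprotein and the most abundant gene of the list, overlapped, with 422 and 354 FPKM with JOA and 395 and 399 FPKM in the controls. The membrane count of lower genes was 6 without JOA replicate 1. Of 10 red cell enzymes, 2 were lower by the rule, PKLR and the carbonic anhydrase gene CA1, and 1 of the list was without either control library. The water channel gene AQP1, among the 12 genes with the lowest fold changes, had 7.60 and 6.56 FPKM with JOA, against 20.1 and 16.1 FPKM in the controls.

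Megakaryocyte genes, which mark the platelet lineage, were at low levels and mixed. Of 13 tested genes of 30 on the list, 3 met the unadjusted rule with higher and 1 with lower values, and the higher count was 0 without control replicate 2. PLEK, a protein kinase C substrate of platelets, had 1.57 and 1.21 FPKM with JOA, against 0.738 and 0.236 FPKM. RAB27B, which serves granule release, had 1.26 and 1.00 FPKM with JOA, against 0.410 and 0.363 FPKM. Neither PLEK nor RAB27B reached a mean of 0.5 FPKM in the controls alone, so both were tested only through their JOA values. Genes that enter this way can only count as higher. TUBB1, the tubulin of platelets, was the lower one, with 4.73 and 2.30 FPKM with JOA, against 8.83 and 7.93 FPKM.

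Myeloid genes had higher values in JOA cells, at much lower levels than the globins. The list of 34 holds surface integrins, receptors and granule proteins of monocytes and granulocytes, and 17 reached the minimum. Of these, 5 met the unadjusted rule with higher and 0 with lower values, with a median log2 fold change of 0.55. In 10 both JOA libraries lay above both controls, beside 36.8% of all genes. The integrins of this lineage were among them. The log2 fold change of ITGAM was 1.26 ± 0.16 (SE, limma adjusted p = 0.227). ITGAX, which encodes CD11c, had 1.53 and 1.77 FPKM with JOA and 0.540 and 0.252 FPKM in the controls. It reached the minimum of 0.5 FPKM only through its JOA values, so its place among the higher genes is no separate support. ITGB2, the beta chain shared by ITGAM and ITGAX, had 4.58 and 4.30 FPKM with JOA and 2.59 and 1.71 FPKM in the controls. ANPEP, the surface aminopeptidase CD13, had 3.74 and 4.49 FPKM with JOA and 1.99 and 2.03 FPKM in the controls (log2 fold change 0.87, limma adjusted p = 0.227). AZU1, an antimicrobial protein of neutrophil granules, had 11.7 and 28.3 FPKM with JOA and 5.08 and 6.90 FPKM in the controls, with most of the difference in JOA replicate 2. SPI1, the master factor of myeloid cells known as PU.1, had 42.2 and 50.9 FPKM with JOA and 42.5 and 41.8 FPKM in the controls, so that the groups overlapped. Of 9 defining myeloid markers, ITGAM and LYZ reached the minimum. LYZ, the lysozyme gene, had 29.9 and 19.0 FPKM with JOA and 21.9 and 16.4 FPKM in the controls, with overlap. The others had means below the minimum. MPO had 0 and 1.14 FPKM with JOA and 0.024 and 0.370 FPKM in the controls. CD14 had 0.138 and 0.258 FPKM with JOA and 0.182 and 0.115 FPKM in the controls, and CSF1R and ELANE lay under 0.2 FPKM in all 4 libraries. The count of higher genes was 9 without JOA replicate 1.

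Signalling adaptors of blood cells are the list that holds FYB1, so it is no separate support for that gene. The list was chosen with earlier results of these data known. Of 17 tested, 6 met the unadjusted rule with higher values, FYB1 among them, and 0 with lower values. The list median was 0.32, and it was 0.24 to 0.44 with 1 library left out. LCP2, the SLP-76 scaffold that binds FYB1, had 5.09 and 7.74 FPKM with JOA and 2.21 and 2.89 FPKM in the controls. WAS, the actin regulator mutated in Wiskott-Aldrich syndrome, had 23.1 and 24.9 FPKM with JOA and 13.8 and 14.6 FPKM in the controls. HCLS1, a cortactin relative of blood cells, had 9.09 and 12.5 FPKM with JOA, against 5.64 and 6.13 FPKM. VASP, an actin elongation factor and the most abundant member, overlapped between the groups.

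The 12 protein-coding genes with the largest fold changes above 5 FPKM included FYB1 and AZU1. They were taken from 194 such genes that met the rule with higher values and had groups apart, and those not yet described follow. GMFG, an actin-branch regulator of blood cells, had 14.1 and 16.7 FPKM with JOA and 4.67 and 5.22 FPKM in the controls (log2 fold change 1.54 ± 0.14, SE, limma adjusted p = 0.185). EVI2B, a surface protein of myeloid cells, had 9.06 and 9.92 FPKM with JOA and 3.94 and 2.48 FPKM in the controls. VSIR, the immune checkpoint protein VISTA, had 19.3 and 32.7 FPKM with JOA and 11.4 and 9.09 FPKM in the controls. The others had various roles. ACSM3, a mitochondrial fatty acid ligase, had 84.3 and 108 FPKM with JOA, against 28.2 and 38.4 FPKM. ATP2A3, a calcium pump of the endoplasmic reticulum, had 76.2 and 169 FPKM with JOA, against 35.5 and 43.8 FPKM. ALDH1A1, which makes retinoic acid from retinal, had 33.0 and 43.0 FPKM with JOA, against 13.9 and 13.4 FPKM. The set also held ID3, an inhibitor of helix-loop-helix factors, the autophagy gene relative ATG16L2 and the transcriptional repressor BCL6. BCL6 had 6.21 and 15.9 FPKM with JOA and 2.64 and 4.29 FPKM in the controls.

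Cytoskeleton and adhesion genes were mixed as a list, with 6 of 47 higher, 0 lower and a median of 0.04 that was below 0 with median-ratio scaling. VIM, the intermediate filament vimentin, had 37.1 and 34.9 FPKM with JOA, against 15.3 and 13.3 FPKM in the controls (log2 fold change 1.30 ± 0.12, SE, limma adjusted p = 0.185). CD44, the hyaluronan receptor, had 2.27 and 1.59 FPKM with JOA, against 0.627 and 0.475 FPKM. LGALS1, a secreted lectin, had 126 and 105 FPKM with JOA, against 68.5 and 58.5 FPKM. ACTB, the most abundant member, had 947 and 740 FPKM with JOA and 985 and 835 FPKM in the controls, so that the groups overlapped.

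**Figure D3:**
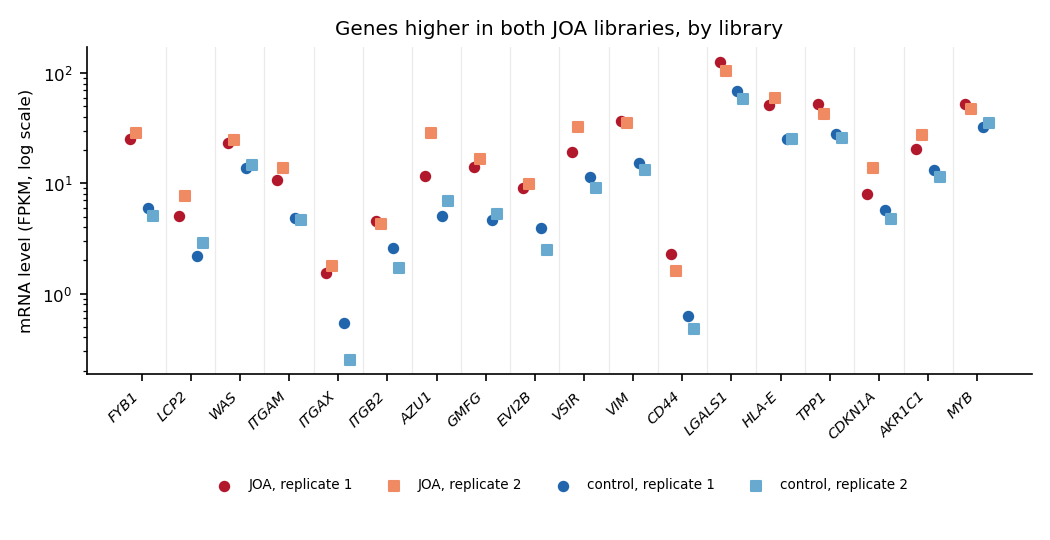
Level of 18 genes whose JOA values both exceeded both control values, by library (FPKM on a log axis), JOA in red and orange left of the controls in blue. FYB1 shows the widest gap between the groups, while AZU1 and CDKN1A have the JOA libraries spread.

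The genes of the fusion and their close partners differed little. BCR had 14.7 and 13.2 FPKM with JOA and 14.3 and 12.5 FPKM in the controls, and ABL1 had 75.6 and 68.4 FPKM with JOA and 69.3 and 59.4 FPKM. The groups overlapped in both genes, and reads of the fusion transcript were not separated from those of the normal genes. Of 21 genes that act close to BCR-ABL, 0 met the unadjusted rule, and 4 did without JOA replicate 1. Of 13 genes of the RAS to ERK cascade, 0 met it in any fit with 1 library left out. The output genes of ERK were split. EGR1, a transcription factor induced within minutes by growth signals, had 13.3 and 14.8 FPKM with JOA, against 25.0 and 46.8 FPKM in the controls (log2 fold change -1.26 ± 0.30, SE, limma adjusted p = 0.240). ETV5, another target of the pathway, was higher, with 5.85 and 7.67 FPKM with JOA, against 3.51 and 4.31 FPKM. DUSP5, a phosphatase that switches ERK off, also met the rule with higher values. Of the 12 other immediate early genes on a list that does not hold EGR1, 1 met the rule. This was JUNB, a subunit of the AP-1 factor, with 11.9 and 15.9 FPKM with JOA and 25.2 and 19.9 FPKM in the controls. In that list 2 genes were higher and 0 lower without JOA replicate 1, 2 were lower without JOA replicate 2 or control replicate 2, and 0 met the rule without control replicate 1. Of 12 targets of STAT5, only BCL6 met it, with higher values, and 0 did without JOA replicate 2 or without control replicate 1. PIM2, a kinase gene induced by STAT5, had 99.9 and 96.8 FPKM with JOA, against 124 and 137 FPKM in the controls (log2 fold change -0.41). Of 17 targets of NF-kB, 0 met the rule, and 3 did without JOA replicate 1.

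MYC, the growth-promoting transcription factor downstream of BCR-ABL, had 107 and 72.2 FPKM with JOA and 119 and 139 FPKM in the controls. The groups did not overlap, and the log2 fold change was -0.54 ± 0.21 (SE, limma adjusted p = 0.293, unadjusted p = 0.0543). It was -0.83 without JOA replicate 1 (unadjusted p = 0.00581) and -0.26 without JOA replicate 2 (unadjusted p = 0.142), and with median-ratio scaling it was -0.69 (unadjusted p = 0.0383), all by limma. Of 12 genes of the MYC network, which are its partners and competitors, 0 met the unadjusted rule. Without JOA replicate 1, 1 was higher and 1 was lower by it.

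The machinery that makes ribosomes was lower in nearly every gene, each by a small step. Of 60 genes for ribosome biogenesis, all 60 had a negative log2 fold change, beside 5889 of all 15635 genes. In 50 both JOA libraries lay below both controls, beside 18.3% of all genes. The median was -0.38, and 10 met the unadjusted rule. MRTO4, an assembly factor of the large subunit, had 21.1 and 13.2 FPKM with JOA and 37.2 and 26.9 FPKM in the controls. MYBBP1A, a nucleolar regulator of ribosomal RNA synthesis, had 15.02 and 9.51 FPKM with JOA and 24.5 and 20.4 FPKM in the controls. PES1, part of the PeBoW complex of large subunit assembly, had 16.9 and 12.1 FPKM with JOA and 26.8 and 20.97 FPKM in the controls. Replicate 2 was the lower library of both groups in these 3 genes, as in 55 of the 60, beside 4547 of all 15635 genes. The count by the rule depended on single libraries, with 24 without JOA replicate 1, 0 without JOA replicate 2, 0 without control replicate 1 and 20 without control replicate 2.

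Cytosolic ribosomal proteins behaved alike. All 79 had a negative log2 fold change, beside 5889 of all 15635 genes. In 72 both JOA libraries lay below both controls, beside 18.3% of all genes, and the median was -0.28. Relative to all genes the median was -0.38, and with quantile normalization it was only -0.13. Replicate 2 was the lower library of both groups in 43 of the 79, beside 4547 of all 15635 genes. The summed level was 14400 and 14300 FPKM with JOA, against 17400 and 16900 FPKM in the controls. Only 3 of the 79 met the unadjusted rule, and the number was 7 without JOA replicate 1, 0 without control replicate 1 and 9 without control replicate 2. With median-ratio scaling and all libraries it was 15. RPS21 had 79.7 and 70.1 FPKM with JOA and 129 and 112 FPKM in the controls, and RPS2, the most abundant, had 573 and 608 FPKM with JOA and 792 and 775 FPKM in the controls. Ribosomal proteins have many processed copies, which the counting could have mixed up. The hosts of small nucleolar RNAs, whose introns carry the guides for ribosomal RNA modification, held 6 of 23 lower genes and a median of -0.34. DANCR had 17.7 and 10.02 FPKM with JOA and 32.7 and 23.3 FPKM in the controls. This count was 1 without JOA replicate 2 and 2 without control replicate 1. Of 44 translation factors, 1 met the rule. EIF5A, which helps the ribosome through difficult peptides, had 57.3 and 40.3 FPKM with JOA and 88.6 and 75.9 FPKM in the controls. The elongation factors EEF1A1 and EEF2 overlapped between the groups. The count for translation factors was 6 without JOA replicate 1, 0 without JOA replicate 2 and 0 without control replicate 1.

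Mitochondrial genes lay lower as well. Of 74 mitochondrial ribosomal proteins, 58 had both JOA libraries below both controls, and the median was -0.29. The unadjusted rule was met by 11 with lower and 1 with higher values. Replicate 2 was the lower library of both groups in 56 of the 74, beside 4547 of all 15635 genes. MRPL41 had 13.2 and 13.9 FPKM with JOA and 34.3 and 27.4 FPKM in the controls (log2 fold change -1.15 ± 0.14, SE, limma adjusted p = 0.227), and MRPS34 had 50.7 and 46.3 FPKM with JOA and 89.1 and 82.1 FPKM in the controls. The lower count was 23 without JOA replicate 1, 5 without JOA replicate 2 and 3 without control replicate 1. Of 75 nuclear genes of the respiratory chain, 57 lay below both controls and 8 met the rule with lower values and 1 (NDUFV2) with higher, with a median of -0.28. NDUFB7, a subunit of complex I, had 88.4 and 82.3 FPKM with JOA and 142 and 126 FPKM in the controls. Without 1 library the count ran from 2 to 14, with 2 without JOA replicate 2 and 2 without control replicate 1. Among the 15 genes of the mitochondrial genome, 6 were lower and 1 was higher by the rule. MT-CO3, of complex IV, had 5110 and 5706 FPKM with JOA and 8182 and 9988 FPKM in the controls. MT-ATP8, which overlaps MT-ATP6, had 10.5 and 12.6 FPKM with JOA and 31.9 and 32.6 FPKM in the controls. MT-RNR2, the large ribosomal RNA, was the higher one, with 9011 and 11350 FPKM with JOA and 5338 and 6919 FPKM in the controls. The lower count was 2 without control replicate 2. Relative to all genes the median of the mitochondrial genome list was -0.51, and with quantile normalization it was only -0.08.

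Short genes and abundant genes more often had lower values than other genes, and several of the lists above hold such genes. Among 138 protein-coding genes with a summed exon length of 500 to 1000 bases, 24.6% met the unadjusted rule with lower values, with a median log2 fold change of -0.25. Among 5519 genes of 5000 bases and more the share was 0.544% and the median 0.13. By level, 7.09% of 268 protein-coding genes at 100 FPKM or more were lower and 0.373% were higher, with a median of -0.21, while 7.79% of 3224 genes at 1 to 5 FPKM were higher and 0.993% lower. The median exon length was 852 bases for the globins, 2502 for the mitochondrial and 3109 for the cytosolic ribosomal proteins, 2475 for the nuclear respiratory chain, 681 for the histones and 4336 for ribosome biogenesis, beside 4965 for all protein-coding genes tested. The part of length and level in these results was not tested.

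**Figure D4:**
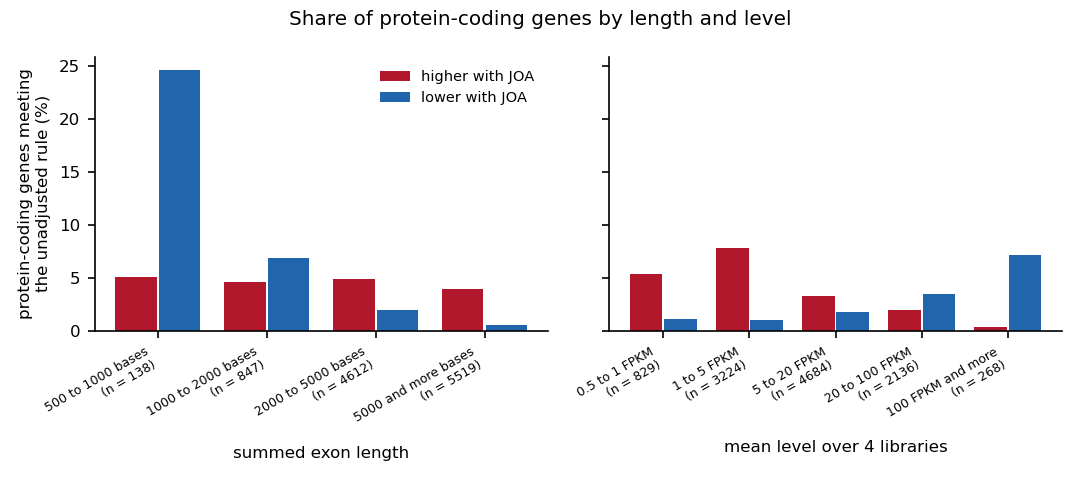
Share of protein-coding genes that met the unadjusted rule (p under 0.05 before adjustment and a log2 difference of 0.58 or more in size) with higher (red) and lower (blue) values in JOA cells, by summed exon length and by mean level. The lower share is 24.6% for genes of 500 to 1000 bases and 0.544% for those of 5000 bases and more; 25 genes under 500 bases are not drawn.

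Genes of DNA replication, mitosis and the G1 phase rarely met the unadjusted rule. Both JOA libraries lay below both controls in 15 of 42 replication genes, 12 of 50 mitosis genes and 12 of 25 G1 regulators. They lay above both in 6, 7 and 5 of these. Among all genes 18.3% lay below and 36.8% above. Of 42 genes for DNA replication and 50 for mitosis, 0 met the unadjusted rule, with medians of -0.10 and -0.03, the first of which was above 0 with TPM scaling. Without JOA replicate 1, 5 replication genes were lower, and 2 mitosis genes were lower and 1 higher. MCM7, of the replicative helicase, had 141 and 113 FPKM with JOA and 168 and 162 FPKM in the controls (log2 fold change -0.38, limma adjusted p = 0.276). PLK1, a kinase of mitosis, had 37.5 and 31.9 FPKM with JOA and 44.3 and 44.3 FPKM in the controls. Among 25 regulators of the G1 phase, only CDKN1A met the rule. Without JOA replicate 2 the count was 0, and 1 gene was lower without JOA replicate 1 or control replicate 2. CDKN1A encodes the cell cycle inhibitor p21 and had 7.96 and 13.7 FPKM with JOA and 5.74 and 4.79 FPKM in the controls (log2 fold change 0.93 ± 0.27, SE, limma adjusted p = 0.256). CDK4, the kinase partner of D cyclins, had 29.9 and 25.5 FPKM with JOA and 39.3 and 33.5 FPKM in the controls, a log2 fold change of -0.39 (limma adjusted p = 0.275). CDK6, its relative, had 22.2 and 21.2 FPKM with JOA and 22.2 and 22.2 FPKM in the controls. CCND1, a D cyclin that was scarce here, had 2.51 and 2.31 FPKM with JOA and 2.04 and 1.48 FPKM in the controls (log2 fold change 0.37, limma adjusted p = 0.354). In the nucleotide synthesis list, 5 of 26 genes were lower by the rule and 0 higher, with a median of -0.24. RRM2, of the enzyme that makes deoxynucleotides, had 12.7 and 7.86 FPKM with JOA and 18.3 and 15.6 FPKM in the controls. ODC1, the first enzyme of polyamine synthesis, had 82.4 and 56.0 FPKM with JOA and 122 and 92.1 FPKM in the controls. This count was 1 without JOA replicate 2 and 1 without control replicate 1. Replication-dependent histone genes, whose mRNA mostly ends without the poly(A) tail that these libraries select for, had 7 of 35 lower and 1 higher. H1-2, a linker histone, had 441 and 404 FPKM with JOA and 759 and 911 FPKM in the controls.

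Genes of the integrated stress response differed by replicate number in both groups. The integrated stress response is the program that ATF4 turns on when amino acids are short or proteins misfold. Of its 29 tested genes 0 met the unadjusted rule, and 12 did with higher values without JOA replicate 1. In 28 of the 29 the library numbered 2 was the higher one in both groups, beside 5270 of all 15635 genes (33.7%). The median log2 difference of replicate 2 over replicate 1 was 1.36 in JOA cells and 0.75 in the controls. ATF4 itself had 160 and 252 FPKM with JOA and 172 and 246 FPKM in the controls. CHAC1, a glutathione-degrading enzyme induced by ATF4, had 3.97 and 47.7 FPKM with JOA and 6.93 and 29.6 FPKM in the controls. DDIT4, an inhibitor of mTORC1, had 67.6 and 222 FPKM with JOA and 84.7 and 255 FPKM in the controls. The JOA values overlapped with the controls in all 3, and the list median against the control mean was -0.36 in JOA replicate 1 and 0.96 in JOA replicate 2. Among the 20 cytosolic aminoacyl-tRNA synthetases, which ATF4 also induces, these medians were -0.17 and 0.35, and VARS1 alone met the rule, with lower values. DDIT3, the stress factor CHOP, was less alike, with 20.7 and 72.0 FPKM with JOA and 12.8 and 16.3 FPKM in the controls (log2 fold change 1.39, limma unadjusted p = 0.0659).

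Genes of the unfolded protein response, which refold or clear proteins of the endoplasmic reticulum, had higher values mostly through JOA replicate 2. The list median against the control mean was 0.18 in JOA replicate 1 and 0.78 in JOA replicate 2. Of 24, 19 had both JOA libraries above both controls, beside 36.8% of all genes, 4 met the unadjusted rule, and the median was 0.56. In contrast to the ATF4 genes, the controls did not differ in a common direction. Control replicate 2 was higher in 12 of the 24 genes, with a median log2 difference of -0.002. JOA replicate 2 was above JOA replicate 1 in 23 of the 24, with a median log2 difference of 0.55. HSPA5, the main chaperone of the compartment, had 268 and 892 FPKM with JOA and 208 and 267 FPKM in the controls, with only JOA replicate 2 well above them (limma adjusted p = 0.380). HSP90B1, another chaperone there, had 214 and 334 FPKM with JOA and 161 and 173 FPKM in the controls. DNAJB9, a co-chaperone of HSPA5, had 9.81 and 20.5 FPKM with JOA and 7.29 and 7.46 FPKM in the controls. EIF2AK3, the stress sensor PERK, had 3.33 and 4.16 FPKM with JOA and 2.30 and 2.18 FPKM in the controls, and DNAJC3 was the fourth. The rule was met by 17 genes without JOA replicate 1, by 0 without JOA replicate 2, by 0 without control replicate 1 and by 1 without control replicate 2. With all libraries it was met by 0 with median-ratio scaling, by 9 with TPM scaling and by 1 with a pseudocount of 1 FPKM.

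**Figure D5:**
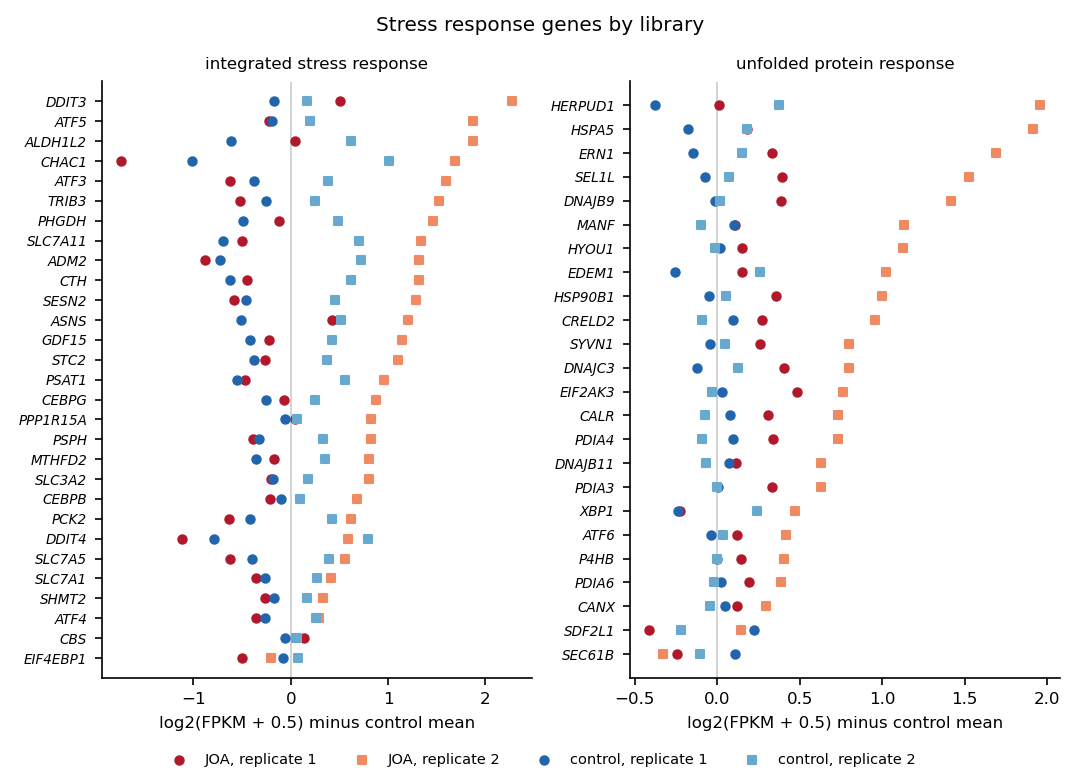
Level of each gene of 2 stress lists, as log2(FPKM + 0.5) minus the control mean, with JOA replicates 1 and 2 in red and orange and control replicates 1 and 2 in blue. In the integrated stress response both libraries numbered 2 (squares) lie to the right of those numbered 1 in 28 of 29 genes. In the unfolded protein response JOA replicate 2 lies to the right of JOA replicate 1 in 23 of 24 genes. Control replicate 2 lies to the right of control replicate 1 in 12 of them.

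Targets of NRF2, the factor of the oxidative stress defence, were higher in part. By the unadjusted rule 5 of 30 were higher and 0 lower, and 15 lay above both controls, beside 36.8% of all genes. AKR1C1, a reductase of steroids and aldehydes, had 20.4 and 27.5 FPKM with JOA and 13.2 and 11.4 FPKM in the controls (log2 fold change 0.93 ± 0.18, SE, limma adjusted p = 0.236), and it has close relatives such as AKR1C2. NQO1, a quinone reductase, had 29.04 and 22.7 FPKM with JOA and 18 and 10.8 FPKM in the controls. PIR, an iron-binding nuclear protein, had 12.1 and 11.9 FPKM with JOA and 7.16 and 5.31 FPKM in the controls. The NRF2 count stood at 9 without JOA replicate 1, at 3 without JOA replicate 2 and at 2 without control replicate 2. Targets of p53 had 3 of 22 higher and 0 lower, although K562 cells are known for lacking working p53. Beside CDKN1A these were TP53INP1, with 9.78 and 12.2 FPKM with JOA and 5.10 and 5.81 FPKM in the controls, and the DNA repair gene DDB2, with 7.21 and 7.47 FPKM with JOA and 3.63 and 5.10 FPKM in the controls. With JOA replicate 1 left out, 8 targets were higher by the rule, and with JOA replicate 2 left out 1 was. Of 18 genes of the BCL2 family, which decide on apoptosis, 0 met the rule, and 2 did without JOA replicate 1.

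Chaperones of the cytosol and the proteasome lay lower. Of 37 heat shock and chaperone genes, 19 were below both controls, 2 met the rule with lower and 1 with higher values, and the median was -0.34. HSPB1, a small heat shock protein, had 101 and 95.4 FPKM with JOA and 182 and 150 FPKM in the controls. HSPA8, the constitutive HSP70, had 255 and 129 FPKM with JOA and 383 and 234 FPKM in the controls, with overlap and with replicate 2 lower in both groups, as in 29 of the 37 genes. Without JOA replicate 1, 13 of the list were lower by the rule. Of 39 proteasome genes, 29 lay below both controls and the median was -0.29, but 0 met the rule with lower values. Replicate 2 was the lower library of both groups in 35 of the 39, beside 4547 of all 15635 genes. The median log2 difference of replicate 2 over replicate 1 was -0.24 in JOA cells and -0.23 in the controls. PSMB5, a catalytic subunit, had 68.0 and 56.4 FPKM with JOA and 99.7 and 80.4 FPKM in the controls. PSMB8, an immunoproteasome subunit induced by interferon, was the 1 higher gene, with 1.45 and 1.67 FPKM with JOA and 0.749 and 0.953 FPKM in the controls. Without JOA replicate 1, 9 proteasome genes were lower by the rule, and without control replicate 2 it was 4.

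Lysosome genes had higher values over most of the list. Lysosomes break down proteins and lipids, and 38 of 53 genes lay above both controls, beside 36.8% of all genes. By the unadjusted rule 5 were higher and 0 lower, and the median was 0.31. TPP1, a lysosomal protease, had 52.3 and 42.8 FPKM with JOA and 27.7 and 25.9 FPKM in the controls (log2 fold change 0.81 ± 0.13, SE, limma adjusted p = 0.227). NPC2, which carries cholesterol out of the lysosome, had 7.35 and 7.62 FPKM with JOA and 4.17 and 4.49 FPKM in the controls. CTSZ, a cathepsin, went the other way, with 70.7 and 50.3 FPKM with JOA and 99.6 and 79.2 FPKM in the controls. The higher count was 9 without JOA replicate 1 and 8 without control replicate 2, where 1 gene each was lower. The JOA libraries were close to each other here, with medians of 0.24 and 0.28. Of 30 autophagy genes, 2 were higher and 15 lay above both controls, beside 36.8% of all genes. WIPI1, an early autophagosome protein, had 3.599 and 5.43 FPKM with JOA and 1.59 and 2.34 FPKM in the controls. The count for autophagy was 4 without JOA replicate 1, 0 without JOA replicate 2 and 0 without control replicate 1.

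Antigen presentation was higher in 12 of 14 tested genes by the position of the libraries, beside 36.8% of all genes. The unadjusted rule was met by 2 with higher values, beside 5.38% of all genes. HLA-E, a class I molecule that inhibits natural killer cells, had 50.8 and 59.8 FPKM with JOA and 25.5 and 25.3 FPKM in the controls, with a log2 fold change of 1.10 ± 0.12 (SE, limma adjusted p = 0.225). HLA-C had 2.17 and 3.14 FPKM with JOA and 1.32 and 1.09 FPKM in the controls, and its relatives could have shared reads. B2M, the light chain of class I molecules, had 98.6 and 92.0 FPKM with JOA and 88.4 and 84.1 FPKM in the controls (log2 fold change 0.14). The count was 4 without JOA replicate 1 and 1 without control replicate 2. Of 24 interferon response genes 3 were higher by the rule, 0 were lower and 13 lay above both controls, beside 36.8% of all genes. GBP2, a guanylate-binding protein, had 0.979 and 1.42 FPKM with JOA and 0.424 and 0.305 FPKM in the controls. It reached the minimum of 0.5 FPKM only through its JOA values. IFITM3, which blocks virus entry, was on the other side, with 44.2 and 44.7 FPKM with JOA and 66.8 and 65.8 FPKM in the controls (log2 fold change -0.57, limma adjusted p = 0.227). USP18 and UBE2L6 were the others of the 3. The interferon count was 6 without JOA replicate 1, 1 without control replicate 1, and 2 without either JOA replicate 2 or control replicate 2.

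Metabolic lists beyond PKLR differed in few genes. Of 25 genes of glycolysis and glucose uptake 1 was lower, with a median of -0.24. The list median against the control mean was -0.00445 in JOA replicate 1 and -0.39 in JOA replicate 2. Replicate 2 was the lower library of both groups in 19 of the 25, beside 4547 of all 15635 genes. SLC2A1, the main glucose transporter of red cells, had 45.5 and 33.2 FPKM with JOA and 68.6 and 55.9 FPKM in the controls. SLC2A3, another glucose transporter, had 43.7 and 34.6 FPKM with JOA, against 27.4 and 29.6 FPKM (log2 fold change 0.44). Without JOA replicate 1 the glycolysis count was 5. Of 26 cholesterol synthesis genes 1 was higher and 0 were lower. Of 15 fatty acid genes 1 was higher, ACSL1, with 17.1 and 22.9 FPKM with JOA and 12.02 and 12.4 FPKM in the controls. FASN, the fatty acid synthase, was the lower one, with 74.5 and 48.9 FPKM with JOA and 90.7 and 96.1 FPKM in the controls. Of 3 genes of metal binding, 2 of lymphocytes and 4 of mast cells and basophils, 0 met the rule. Of 10 antigens known from this line, 2 were lower by it. Of 34 chromatin and DNA methylation genes 0 met the rule, and 1 did without JOA replicate 1.

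Some genes were split between the 2 JOA libraries and not between the groups. TXNIP, a glucose-responsive inhibitor of thioredoxin, had 146 and 5.52 FPKM with JOA and 107 and 151 FPKM in the controls. ARRDC4, its close relative with the same regulation, had 8.45 and 1.41 FPKM with JOA and 6.57 and 9.48 FPKM in the controls. XAGE1B, a cancer-testis antigen with near-identical copies, had 20.3 and 0.156 FPKM with JOA and 0.121 and 0.0922 FPKM in the controls. With 2 libraries in each group, the smallest two-sided p of an exact permutation test is 0.333, so no such test of a single gene can pass a threshold of 0.05.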

How the data were processed

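The deposited values used here are FPKM per gene that the authors computed (TruSeq Stranded mRNA kit), and per the labels Trimmomatic, HISAT2, Cufflinks and HTSeq were used with hg38, without versions. The methods speak of TPM, whereas column sums ran between 279624.4 and 301985.4, unlike TPM. Values were multiplied by GENCODE 29 exon lengths to recover reads, and 96.2% to 96.3% of genes under 1000 reads came out whole within 0.05. Genes whose mean reached 0.5 FPKM entered limma 3.58.1 (R 4.3.3) as log2(FPKM + 0.5), two-sided, with a variance trend and no covariate, and Benjamini-Hochberg adjustment over all 15635 genes. Fold changes on this scale understate those of low genes. The minimum was taken over both groups, so a gene low in one group could enter through the other. Of the 35141 identifiers, 99.6% had a symbol. Promoters come from RefSeq (GRCh38.p14), and tables and plots from Python 3.11.15, pandas 2.3.3, numpy 2.4.6 and matplotlib 3.10.9. The fit was run on simulated data with the same spread for all genes and independent libraries. That setting lacks the differences by replicate number seen here. Depth limits counting error only, as the reads carry no molecular identifiers.

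The members and the 49 gene lists were chosen with earlier results of these data known. Genes named are the paper's main genes, the 12 largest and 12 smallest fold changes among protein-coding genes at 5 FPKM or more that met the unadjusted rule with groups apart, and for each list up to 4 genes in its direction, 1 opposite and the 2 most abundant. Genes described beyond this, such as those split between the JOA libraries and those of the stress lists, were chosen after their values were seen. Alternatives were other pseudocounts, minimum levels, scalings, no variance trend, a replicate block, each library left out and voom weights on recovered reads. Without a library, the lone sample of its group is assumed to vary like the other group. Some genes are not reported here.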

Additional observations from a re-analysis of the deposited data

How the results depend on the processing

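With an adjusted p under 0.05 and the fold, 0 genes were higher and 0 lower, and 841 and 372 with unadjusted p-values. A minimum mean of 5 FPKM gave 2 higher and 2 lower genes by the adjusted test, and 250 and 215 by the unadjusted rule. With voom on recovered reads, FYB1 alone (1 gene) passed the adjusted test. The unadjusted rule gave 242 lower genes with TPM scaling, 533 higher and 686 lower with median-ratio scaling and 505 higher with quantile normalization. With 1 library left out, 519 to 1870 genes were higher and 228 to 752 lower. Of 46 list medians, 9 changed sign without JOA replicate 2, among them the integrated stress response (0.319 with all libraries, -0.359 without it), 8 with median-ratio scaling, 3 with TPM scaling and 3 without control replicate 1. Medians also turned to -0.000371 (STAT5 targets, without JOA replicate 2, the low end of -0.000371 to 0.199 with 1 library left out), to -0.0667 (RAS to ERK cascade), -0.0266 (MYC network), -0.0762 (chromatin) and -0.108 (actin, tubulin and adhesion) with median-ratio scaling, and to 7.41e-05 (DNA replication) with TPM scaling. CDK6 turned to 0.0601 with TPM scaling, and BCR to -0.0877 with median-ratio scaling, -0.0215 without JOA replicate 1 and -0.0412 without control replicate 2 (-0.0412 to 0.146 with 1 library left out). The cause was not tested.

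The labels name no shared batch or day for a replicate number. With 2 pairs, the correlation of same-numbered deviations was 0.188, and a fit with the replicate block gave 1064 higher and 428 lower genes by the unadjusted rule and 0 of each by the adjusted test. The block gave 9 higher genes of the unfolded protein response, against 4, and 5 lower cytosolic ribosomal proteins, against 3. With 2 libraries a group, few degrees of freedom limit every test.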
